A study of Caenorhabditis elegans with 4 samples.

Results

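The 22 FMRFamide-like peptide (flp) genes measured here were nearly all likely lower in last-stage (L4) larvae of wild-type Caenorhabditis elegans than in a wild-type mixed reference. They were chosen as the probes to which the platform annotation gives exactly 1 gene with a symbol of flp and a number. That rule found 26 probes of 21632, for 22 of the 14901 named genes tested. Expression was measured on 4 arrays with 2 channels each. Channel 2 of an array held 1 of 4 preparations of L4 mRNA from wild-type worms, numbered 1 to 4 in the labels, and channel 1 held mRNA of the wild-type mixed reference. The labels give no strain, no culture conditions and no make-up of the reference, and they do not say whether the preparations were grown separately. The p-values therefore measure the spread between these 4 samples, which may be partly technical.

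The flp genes encode precursor proteins that are cut into short peptides ending in arginine and amidated phenylalanine. Neurons pack these peptides into dense-core vesicles and release them to act on G protein-coupled receptors, and in the worm they tune locomotion, feeding, egg laying, sleep and mating. A convertase cuts the precursor, a carboxypeptidase trims it, and amidating enzymes finish the peptide.

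A value is the log2 ratio of L4 to reference after subtraction of the array's median over probes, so a value of -1 is a 2-fold lower ratio. The direction of the deposited ratio is not stated. Because the labels set L4 against the reference, positive values are taken as likely higher in L4, and every "higher" or "lower" in the text is likely in that sense. The 4 arrays ran the same way: over all probes their pairwise Pearson correlations were 0.56 to 0.72. They held values for 21084 to 21489 of the probes, and the SD over probes was 0.85 to 1.21.

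Of the 22 flp genes, 19 were lower, 0 were higher and 3 did not pass the test (limma, Benjamini-Hochberg adjusted p under 0.05 over all 19911 probes and genes tested). Over all named genes 9.66% were lower and 13.4% higher. The 3 that did not pass were flp-5, flp-10 and flp-23, each with an unadjusted p under 0.05. All 22 had a value on all 4 arrays, and none was lost to the filter on missing values. The median over the 22 means was -1.40, against 0.05 over all named genes. 21 of the 22 were below 0 on all 4 arrays, which held for 21.8% of named genes. 17 passed with a mean of -1 or less, against 6.95% of named genes, and 3 with a mean of -2 or less, against 1.54%. Counting from the lowest mean, 13 flp genes lay within the lowest 5% of named genes. The moderated standard errors (SE) of the 19 were 0.21 to 0.28. In whole animals, fewer neurons per unit of RNA and less flp RNA per neuron cannot be told apart.

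**Figure D1:**
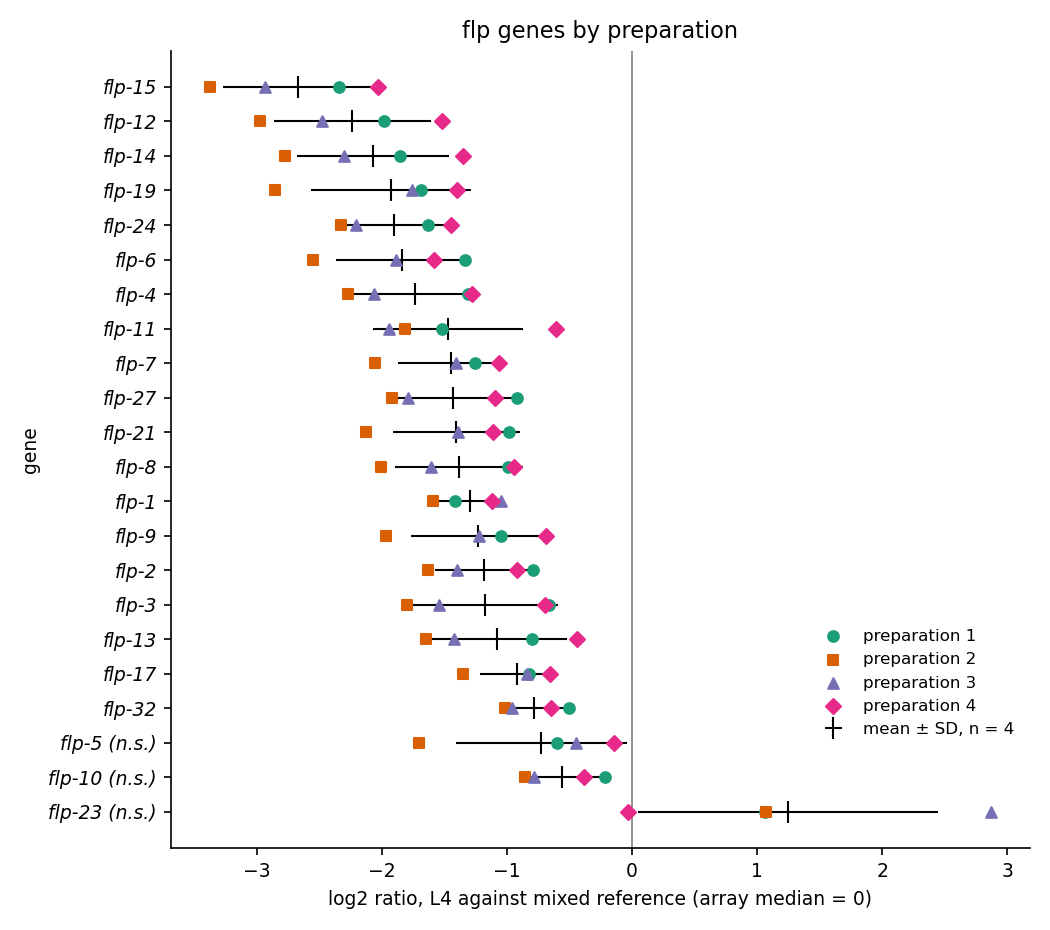
Log2 ratio of L4 to mixed reference (x axis) for the 22 flp genes (y axis, ordered by mean), with a coloured point for each of the 4 preparations and a black tick and line for the mean ± SD (n = 4). The genes marked n.s. did not pass an adjusted p of 0.05. All genes but flp-23 lie left of 0 on every array, and preparation 2 is the leftmost point for 20 of the 22.

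By gene means, with the 2 probes of flp-1 averaged, the lowest were flp-15, flp-12 and flp-14. The gene flp-15 (ZK525.1), whose peptides activate the receptor NPR-3 in cell assays, had log2 ratios of -2.34, -3.37, -2.93 and -2.03 in preparations 1 to 4. With probes averaged, flp-15 was the lowest flp gene on every array. Taken alone, probe 2801801 of flp-1 had -2.45, -3.69, -2.61 and -2.32, below flp-15 in preparations 1, 2 and 4. The mean of flp-15 was -2.67 ± 0.27 (SE, n = 4), 6.37-fold lower in L4 (limma adjusted p = 0.000786), which placed it 88th from the lowest of the named genes. The gene flp-12 (C05E11.8), one of a set of flp genes that restrain turning in mating males, had -1.98, -2.97, -2.48 and -1.52. Its mean was -2.24 ± 0.27, a 4.72-fold lower ratio (adjusted p = 0.00155). The gene flp-14 (Y37D8A.15) had -1.85, -2.77, -2.30 and -1.35, a mean of -2.07 ± 0.27 (adjusted p = 0.00186). In all 3 genes preparation 2 was the lowest and preparation 4 the highest, and no value came near 0. Their order held on all 4 arrays: flp-15 lay below flp-12 by 0.43 ± 0.07 (SD of the differences), and flp-12 below flp-14 by 0.17 ± 0.03. Further down, the order was loose. Of 21 pairs of neighbours in the order of means, 3 had the same order on all 4 arrays, these 2 and flp-10 below flp-23.

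The flp genes of the carbon dioxide-sensing BAG neurons and of egg laying were spread along the range. The gene flp-19 (M79.4), expressed in BAG and other sensory neurons, had -1.69, -2.85, -1.76 and -1.40, with preparation 2 set apart from the other preparations. Its mean was -1.93 ± 0.28 (SE, n = 4; adjusted p = 0.00273). The gene flp-17 (C52D10.11), which BAG neurons use to inhibit egg laying through the receptor EGL-6, was less reduced, at -0.82, -1.35, -0.84 and -0.66. Its mean of -0.92 ± 0.22 passed (adjusted p = 0.0203), but not without preparation 1, 2 or 3 (adjusted p = 0.0736, 0.0647 and 0.0515). The other known ligand gene of EGL-6, flp-10 (T06C10.4), did not pass: it had -0.22, -0.86, -0.78 and -0.39, a mean of -0.56 ± 0.22 (adjusted p = 0.102). The receptor gene egl-6 itself had ratios of -0.14, 0.32, -0.59 and -0.77, on both sides of 0, and did not pass (adjusted p = 0.417).

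Genes with roles in sleep also lay along the range. The gene flp-11 (K02G10.4), the main sleep-inducing peptide gene of the RIS neuron, had -1.52, -1.81, -1.94 and -0.61. Preparation 4 was well above the other preparations, and flp-11 was the only one of the 19 whose lowest value was in preparation 3. Its mean was -1.47 ± 0.27 (SE, n = 4; adjusted p = 0.00722). The genes flp-24 (C24A1.1) and flp-13 (F33D4.3) act in the ALA neuron in the sleep that follows cellular stress. Ratios of flp-24 were -1.63, -2.33, -2.21 and -1.45, a mean of -1.90 ± 0.24 (adjusted p = 0.00162). Those of flp-13 were -0.80, -1.65, -1.42 and -0.44, a mean of -1.08 ± 0.26 (adjusted p = 0.0213). On every array flp-24 lay below flp-13, a difference that was not tested. Without preparation 2 or 3, flp-13 did not pass (adjusted p = 0.0662 and 0.0816).

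Genes of foraging, fat and arousal lay close together near the middle. The gene flp-21 (C26F1.10), a ligand of the receptor NPR-1 that controls aggregation and feeding behaviour, had -0.99, -2.13, -1.39 and -1.11, a mean of -1.40 ± 0.25 (SE, n = 4; adjusted p = 0.00667). The gene flp-7 (F49E10.3), which mediates fat loss in response to serotonin, had -1.26, -2.05, -1.41 and -1.07, a mean of -1.45 ± 0.24 (adjusted p = 0.00462). In both, preparation 2 lay below the other 3 preparations. The gene flp-2 (W07E11.3), which promotes arousal, had -0.79, -1.63, -1.40 and -0.92, a mean of -1.19 ± 0.23 (adjusted p = 0.00916). Its direct neighbour on the chromosome is flp-3 (W07E11.2), which takes part in the attraction of males to pheromone. flp-3 had -0.67, -1.80, -1.55 and -0.69, a mean of -1.18 ± 0.27 (adjusted p = 0.0163). The neighbours differed by 0.01 on average with an SD of 0.20 over arrays, so their ratios could not be told apart. Without preparation 2 or 3, flp-3 did not pass (adjusted p = 0.0505 and 0.0705). The gene flp-8 (F31F6.4), which shares with flp-12 and flp-10 the restraint of male turning, had -0.99, -2.01, -1.61 and -0.94, a mean of -1.39 ± 0.25 (adjusted p = 0.00702). The means of these 3 turning genes ran from -2.24 for flp-12 to -0.56 for flp-10.

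Of the remaining genes with other or unassigned roles, 5 passed besides flp-1, whose probes are described separately: flp-6 at -1.84 ± 0.25 (SE, n = 4), flp-4 at -1.73 ± 0.25, flp-27 at -1.43 ± 0.25, flp-9 at -1.23 ± 0.26 and flp-32 at -0.78 ± 0.21, with adjusted p from 0.00233 to 0.0331 in limma. The gene flp-6 (F07D3.2), expressed in sensory neurons such as ASE, had -1.34, -2.56, -1.89 and -1.59. The gene flp-32 (R03A10.2) had the smallest mean of the genes that passed, with -0.51, -1.01, -0.96 and -0.65. All 4 of its values were below 0, but it did not pass when any 1 of the 4 preparations was left out (adjusted p = 0.0612 to 0.093). The gene flp-5 (C03G5.7) did not pass: its ratios were -0.60, -1.71, -0.45 and -0.15, a mean of -0.73 ± 0.29 (adjusted p = 0.106). Its values were all below 0, with preparation 2 far below the other preparations.

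The exception in sign was flp-23 (F22B7.2). Its ratios were 1.06, 1.07, 2.87 and -0.03, with a mean of 1.24 ± 1.20 (SD, n = 4; SE 0.41). Preparations 1 to 3 were above 0 and preparation 4 was at 0. With all 4 arrays, median centring and equal array weights, flp-23 did not pass (limma adjusted p = 0.0667). It passed as higher with pan-neuronal centring (adjusted p = 0.0332), where 30.6% of named genes were higher, against 13.4% with median centring. It also passed without preparation 4, at 1.67 (adjusted p = 0.03), where 1818 of 14400 named genes were higher. With array weights of 3.53, 0.67, 0.54 and 0.78 for preparations 1 to 4, it passed as well (adjusted p = 0.02). Of 14901 named genes, 3006 were higher with these weights, against 1998 with equal weights. Without preparation 3 the mean of flp-23 was 0.70 (adjusted p = 0.164). Over all its alternatives the adjusted p ran from 0.02 to 0.177. Its probe 2790293 had 0.80, 0.97, 1.62 and 0.06 (SD 0.64), and its probe 2790989 had 1.33, 1.18, 4.11 and -0.12 (SD 1.78), so the wide spread lay in probe 2790989. Preparation 3 was the highest and preparation 4 the lowest on both probes.

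Besides flp-23, 3 genes had 2 probes, and those of flp-1 disagreed. The gene flp-1 (F23B2.5) regulates locomotion and is the first flp gene described in the worm. Its probe 2801801 had -2.45, -3.69, -2.61 and -2.32, a mean of -2.77 ± 0.28 (SE, n = 4; limma adjusted p = 0.000843 with each probe tested separately). Its probe 2801105 had -0.39, 0.50, 0.50 and 0.08, a mean of 0.17 ± 0.24 (adjusted p = 0.632). By its mean, probe 2801801 was lower than any other flp probe and probe 2801105 was around 0, and the gap between them was 2.06 to 4.18 on the 4 arrays. The platform annotation gives both probes the same gene and the same accessions. The averaged value of flp-1, -1.30 ± 0.21 (adjusted p = 0.00467), is therefore the mean of unlike probes, and the count of 19 rests for this gene on probe 2801801. For flp-10, probe 2776615 averaged -0.84 ± 0.23 and passed when tested separately (adjusted p = 0.0357), while probe 2780181 averaged -0.29 ± 0.22 and did not (adjusted p = 0.385). The flp-4 (C18D1.3) probes differed by 0.36 ± 0.15 (SD over arrays), and each passed separately, at -1.91 and -1.56. With 4 arrays an exact two-sided sign-flip test cannot give a p under 0.125, so the gaps between probes are described without a test.

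**Figure D2:**
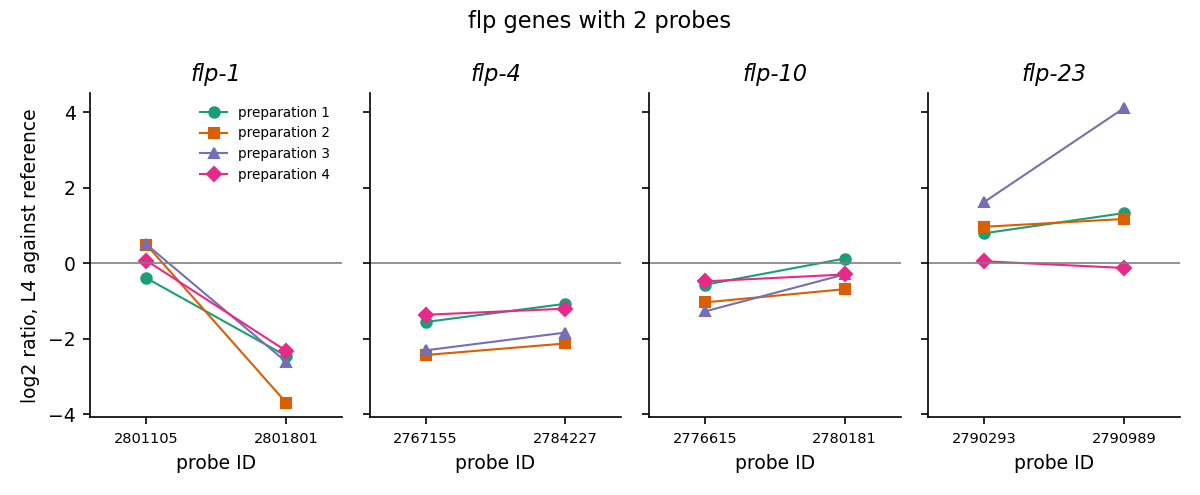
Log2 ratio of L4 to mixed reference (y axis) on each of the 2 probes (x axis, probe ID) of flp-1, flp-4, flp-10 and flp-23, with a line for each of the 4 preparations. The flp-1 lines all drop steeply, from values around 0 on one probe to values of -2.32 or less on the other, while the gaps are 0.16 to 0.48 for flp-4 and 0.18 to 0.98 for flp-10. For flp-23 the widest gap is in preparation 3, which is at 1.62 on one probe and 4.11 on the other.

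The preparations shifted the flp genes together. The flp median was -1.02, -1.94, -1.49 and -1.01 in preparations 1 to 4. Preparation 2 held the lowest value of 20 of the 22 genes, and preparation 4 the highest value of 13. The median SD of a flp gene over arrays was 0.52, close to the 0.47 of named genes as a whole. After the flp median of each array was subtracted, it was 0.20, and the SD shrank for all but flp-1 and flp-23. The ranking of the 22 genes was alike on every pair of arrays, with Spearman's rho from 0.78 to 0.86 over genes, which share arrays and a reference and are not independent replicates. The arrays with the lower flp medians, 2 and 3, were also those with the larger SD over all probes, at 1.19 and 1.21, against 0.95 and 0.85 on arrays 1 and 4. Setting the arrays to 1 median absolute deviation left 19 flp genes lower. That count does not measure the shifts between arrays, and the part of array scale in the shifts was not tested.

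Several genes that make and pack neuropeptides were lower. Of 18 listed, 15 were tested, and 7 were lower, 0 higher and 8 did not pass, against 9.66% lower and 13.4% higher over all named genes, with a median of -0.68. The gene sbt-1, which encodes a chaperone of the convertase EGL-3, had -1.99, -2.62, -2.35 and -1.43, a mean of -2.10 ± 0.25 (SE, n = 4; limma adjusted p = 0.00144). The convertase gene egl-3 had -1.80, -1.99, -2.24 and -1.14, a mean of -1.79 ± 0.24 (adjusted p = 0.00222), and the carboxypeptidase gene egl-21 a mean of -1.56 ± 0.27. All 3 were below 0 on every array, and their means lay within the range of the flp genes themselves. The amidating enzyme gene pgal-1 averaged -1.71 ± 0.23 and the dense-core vesicle membrane gene ida-1 averaged -1.53 ± 0.22. The other genes that passed were the amidating enzyme gene pamn-1 at -1.06 (adjusted p = 0.0346) and the protein kinase C gene pkc-1 at -0.73 (adjusted p = 0.0437). Among the 8 that did not pass, the gene unc-31, needed for dense-core vesicle release, had -1.04, -0.18, 1.55 and 0.02, on both sides of 0 (adjusted p = 0.889), and the convertase gene aex-5 of intestine and muscle was at 0.54 (adjusted p = 0.136); these 4 genes were singled out after their values were seen.

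Few receptors of FLP peptides passed. Of 21 listed, 16 were tested, and 2 were lower, 0 higher and 14 did not pass, near the 9.66% lower over all named genes, with a median of -0.27. The genes that passed were frpr-18, a receptor for FLP-2 peptides, at -0.86 ± 0.25 (SE, n = 4; limma adjusted p = 0.0402), and dmsr-1, a receptor for FLP-13 peptides, at -0.79 ± 0.21 (adjusted p = 0.0288). Without preparation 1, 2 or 3, 0 receptors passed, and 1 did without preparation 4. Likewise 0 passed with housekeeping or pan-neuronal centring, or with arrays that share title letters as a random block, and 5 passed with array weights. The receptor gene of the lowest ligand, npr-3, had -0.05, 0.18, -0.05 and -0.72 (adjusted p = 0.641), against a flp-15 mean of -2.67. Likewise npr-1 had -0.42, -0.10, 0.23 and -0.30 (adjusted p = 0.65), against a flp-21 mean of -1.40. Both receptors were on either side of 0, while their ligand genes were below 0 on all 4 arrays; the differences were not tested.

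**Figure D3:**
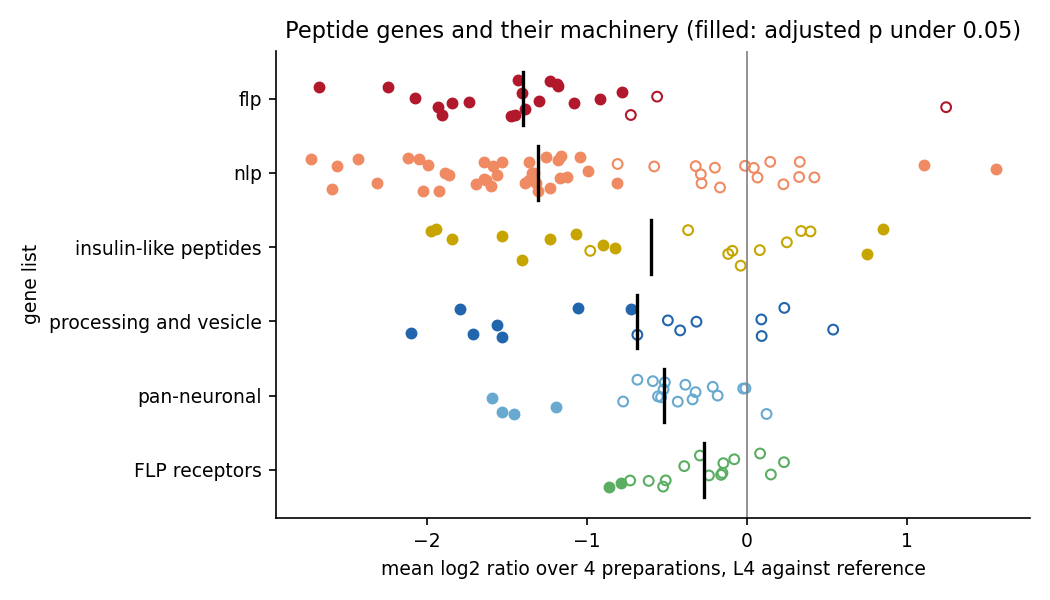
Mean log2 ratio of L4 to mixed reference over the 4 preparations (x axis) for the genes of 6 lists (y axis), 1 point per gene, filled where the adjusted p was under 0.05, with a black bar at the list median and vertical scatter for legibility only. The flp and nlp medians lie at -1.40 and -1.30, those of the other lists between -0.68 and -0.27.

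The other neuropeptide families also held genes that were lower. Of 53 nlp genes, which encode peptides without the FMRFamide-like ending, 36 were lower and 2 higher, with a median of -1.30. The 2 higher are a smaller share than the 13.4% higher over all named genes, and the 36 lower a larger one than the 9.66% lower. The lowest were nlp-12 at -2.72 ± 0.28 (SE, n = 4), nlp-29 at -2.59 ± 0.26 and nlp-28 at -2.56 ± 0.46. The last 2 are epidermal antimicrobial peptide genes, so the count and median of the nlp list are not of neuropeptide genes alone. The 2 higher, nlp-4 and nlp-22, were 1 without preparation 2 or 3. Of 20 insulin-like peptide genes, 9 were lower and 2 higher, ins-6 at 0.75 and ins-37 at 0.85, with a median of -0.60 and the lowest, ins-35, at -1.97 ± 0.24. Its 2 higher are likewise 10% of the list, below the 13.4% over all named genes, and its 9 lower are 45%, against 9.66%. The 9 were 5 without preparation 2 or 3, and the 2 were 0 without preparation 1, 2 or 4 and 1 without preparation 3. The genes that were higher in these families were named after their values were seen. With all 4 arrays, median centring and equal array weights, 0 flp genes passed as higher. The difference between the families was not tested.

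A list of genes that all neurons express had a median nearer 0 than the flp genes. Of 21 listed, 20 were tested, and 4 (20%) were lower, against 9.66% over all named genes, 0 were higher and 16 did not pass, with a median of -0.52. Those lower were the synaptic genes ric-4 at -1.59 ± 0.26 (SE, n = 4), sng-1 at -1.53 ± 0.31 and snt-1 at -1.19 ± 0.23, and rab-3 at -1.46 ± 0.30 on 3 arrays. These 4 means lay around the flp median of -1.40. Means of the list ran from -1.59 to 0.12, so its median depends on the genes listed. Whether its members are expressed in neurons alone was not examined, so a gap between the lists cannot be read as a change per neuron. Without preparation 3, 2 genes of the list passed as lower. The pan-neuronal median was -0.34, -0.83, -0.72 and -0.21 in preparations 1 to 4, lowest in the same array as the flp median. The flp median was nearly equal in preparations 1 and 4, at -1.02 and -1.01. The flp median lay below the pan-neuronal median on each array, by 0.67, 1.11, 0.76 and 0.79. When each array was centred on the pan-neuronal median instead, the median over all features moved to 0.54, and 13 flp genes were lower and 1, flp-23, higher, against 3.83% and 30.6% of named genes. The flp median was then -0.87, and 21 of the 22 genes had means below 0. The genes that stayed lower ran from flp-15 at -2.15 ± 0.23 (adjusted p = 0.00169) to flp-1 at -0.77 ± 0.24 (adjusted p = 0.0428).

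**Figure D4:**
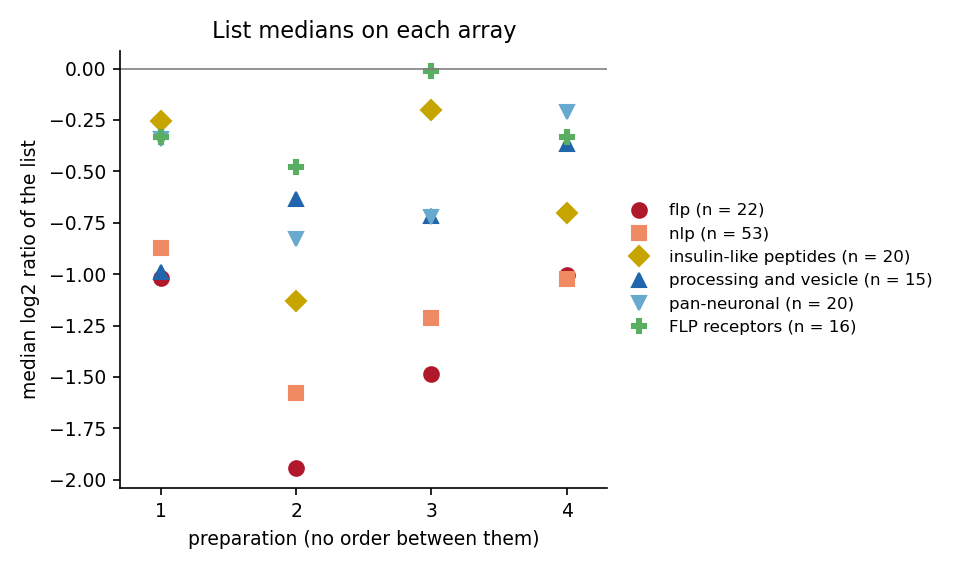
Median log2 ratio of each list (y axis) on the array of each preparation (x axis, with no order between preparations), with a symbol for each of 6 lists and the number of genes tested in the legend. The flp median is the lowest of the 6 on arrays 1, 2 and 3, and at -1.01 lies beside the nlp median of -1.02 on array 4.

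Markers of other tissues moved in both directions, to be held against 13.4% higher and 9.66% lower over all named genes. Of 10 body wall muscle genes 10 were higher, with list medians of 1.26, 1.25, 1.04 and 1.76 in preparations 1 to 4. Of 10 intestine genes 5 were higher and 0 lower, and of 8 epidermis genes 2 (25%) were higher and 1 (12.5%) lower. The epidermis median ran from -0.60 in preparation 2 to 1.81 in preparation 4. Of 56 sperm genes 45 were higher, with medians of 2.81, 3.16, 1.85 and 1.00, and of 13 oocyte and yolk genes 7 were lower, with medians of -1.30, -0.06, -3.08 and -3.05. Preparation 2, where the flp genes were lowest, thus had the highest sperm median and an oocyte and yolk median close to 0. The part of tissue make-up in the flp ratios was not tested. The pan-neuronal genes unc-119 and rgef-1 were measured on all 4 arrays and did not pass. The mean of unc-119 was -0.56, and that of rgef-1 was -0.21, from unlike values of 0.08, -1.53, 0.99 and -0.40. In the same list ric-4, sng-1, rab-3 and snt-1 were lower, at -1.59 to -1.19, and 16 of the 20 genes tested did not pass.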

How the data were processed

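The authors deposited 1 value per probe and array for 21632 probes, whose unit is not stated. These deposited values were taken as log2 ratios, because raising 2 to them gave multiples of 0.001 (tolerance 0.02 steps) for 100% of values below 0, against 5.4% to 5.9% for natural logarithms. What dyes, background correction, normalization and direction were used is not stated. The column medians as deposited were -0.047, 0.007, -0.1 and -0.042.

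Each array was centred on its median. Of the probes, 16450 named 1 gene, 247 several and 4935 none; 16360 of the first matched WBcel235 by gene ID, used for names and neighbours only, and 0 symbols changed. Probes of 1 gene were averaged, and a value on at least 3 of 4 arrays was required. With limma 3.58.1 (lmFit, eBayes, 5.15 prior degrees of freedom) in R 4.3.3, each mean was compared with 0, two-sided, with Benjamini-Hochberg adjustment at 0.05. The reference counts as 1 sample whose own spread is left out. SE is limma's moderated one. Figures used Python 3.11.15, pandas 2.3.3 and matplotlib 3.10.9. The fit was also run on simulated data, with an outcome that is not reported here. A further probe naming 2 genes, 1 of them a flp gene, was left out, and 9 flp symbols of the name table were not analysed here.

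The members and lists were chosen with earlier results of these data known. All flp genes are reported; of each pathway list, the rule named at most 5 members that passed, by absolute mean, and genes named beyond it in a ligand pairing were chosen for that pairing. Array number and signal, not read depth, limit precision.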

Additional observations from a re-analysis of the deposited data

How the results depend on the processing

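The count of 19 flp genes lower was 13 to 20 over 15 alternatives, and all means but flp-1's kept their sign. Of 330 combinations of flp gene and alternative, 301 kept both sign and side of the threshold, 23 no longer passed, 5 newly passed and 1 reversed: flp-1 with the lowest-ID probe, at 0.17. With the highest-ID probes, chosen after the probe values were known, 19 were lower. With housekeeping centring 14 flp genes were lower, and flp-3, flp-9, flp-13, flp-17 and flp-32 did not pass (adjusted p = 0.0553, 0.0538, 0.0626, 0.106 and 0.136). Without 1 preparation, 15 to 18 were lower and 0 to 1 higher. The 1 higher was flp-23, which also passed with pan-neuronal centring and with array weights. Pan-neuronal centring moved the flp median to -0.87. It left 1 of 15 processing genes and 4 of 53 nlp genes higher, against 30.6% of named genes. It left 0 of 16 receptors, 2 of 20 pan-neuronal genes and 5 of 20 insulin-like genes lower, against 3.83% of named genes. Housekeeping centring left 0 receptors lower, 1 nlp gene higher, and 4 insulin-like genes lower and 0 higher. Array weights, which rest mostly on preparation 1 (weight 3.53), gave 5 receptors and 9 pan-neuronal genes lower. Values as deposited gave 1 insulin-like gene higher. Treating the arrays whose titles share letters (preparations 1 and 4) as a random block, with a correlation of 0.51, left 18 flp genes and 0 receptors lower and 0 insulin-like genes higher. Without 1 preparation, receptors lower were 0 to 1, pan-neuronal genes lower 2 to 4, nlp genes higher 1 to 2, and insulin-like genes lower 5 to 8 and higher 0 to 1. The causes were not tested. Over all named genes 9.66% were lower, against 4.91% with housekeeping centring, 15.7% with array weights and 5.58% to 8.32% without 1 preparation. Of all calls 54.9% were higher, and 88.8% were with pan-neuronal centring. Housekeeping centring moved the median of all features to 0.11. No paired analysis was possible because the labels give 1 group.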
